A study of Mus musculus with 24 samples.

Results

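The 44 collagen genes described here were taken from the authors' deposited tables by symbol: every protein-coding gene named Col, a number, a and a number. They stand among 26260 genes, and 43 of them are present in all 4 tables. The exception, Col10a1 of hypertrophic cartilage, is listed in 2 tables at a fitted level of 0.16 normalised counts. RNA came from 24 whole mouse guts of embryonic day 12.5, 6 per genotype with 3 females and 3 males each, on a background mixed from the strains C57BL/6, 129/Sv and C3H. Guts were wildtype, null for Ret, null for Sema3d, or null for both (Ret-Sema3d double null), and the labels name no alleles. Each mutant genotype was compared with the same 6 wildtype guts over 12 guts, and another table tested the interaction of Ret and Sema3d over all 24. The series asks whether these genes, which encode a receptor tyrosine kinase and a secreted semaphorin, act on each other as the enteric nervous system forms. Only fitted values per genotype could be used, so values per gut are not shown, and nothing says how the guts of a genotype were related.

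Collagens are secreted or membrane-bound proteins built of 3 chains wound into a triple helix. The fibrillar collagens form the ropes that give connective tissue its strength, and the FACIT collagens sit on the surface of those fibrils. The type IV chains form the sheet-like network of basement membranes under epithelia and around vessels, muscle and nerve. Type VI chains assemble into beaded filaments around cells, the multiplexins Col15a1 and Col18a1 lie in or beside basement membranes, and a further group spans the cell membrane. In the embryonic gut, collagens are part of the matrix through which neural crest cells migrate to build the gut's own nerves and glia.

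The stretch upstream of 4 genes is shown to give the results a place in the genome: Col3a1, which had the highest fitted level per kb, Col15a1, the collagen called in double null guts, and the head-to-head X-linked pair Col4a5 and Col4a6. Sequences are from RefSeq on GRCm38.p6, written 5′ to 3′ on the gene's strand, without bases that an annotated exon covers. Capitals mark motifs read on either strand, which are the TATA box written as TATAAA, the CAAT box written as CCAAT and the GC box written as GGGCGG; no motif overlaps another in these stretches. The Col3a1 stretch is chr1:45311288-45311537 on the plus strand, and that of Col15a1 is chr4:47207762-47208011 on the plus strand. Col4a5 has chrX:141475169-141475384 on the plus strand and Col4a6 has chrX:141474077-141474326 on the minus strand.
Col3a1: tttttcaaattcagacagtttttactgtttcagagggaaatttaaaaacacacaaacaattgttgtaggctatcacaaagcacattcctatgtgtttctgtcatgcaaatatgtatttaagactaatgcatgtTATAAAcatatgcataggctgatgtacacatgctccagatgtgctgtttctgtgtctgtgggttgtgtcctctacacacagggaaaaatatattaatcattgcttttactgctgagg
Col15a1: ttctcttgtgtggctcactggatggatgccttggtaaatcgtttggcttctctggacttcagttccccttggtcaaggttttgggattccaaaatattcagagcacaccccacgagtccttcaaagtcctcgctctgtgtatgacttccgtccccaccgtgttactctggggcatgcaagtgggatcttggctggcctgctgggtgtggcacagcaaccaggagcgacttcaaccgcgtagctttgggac
Col4a5: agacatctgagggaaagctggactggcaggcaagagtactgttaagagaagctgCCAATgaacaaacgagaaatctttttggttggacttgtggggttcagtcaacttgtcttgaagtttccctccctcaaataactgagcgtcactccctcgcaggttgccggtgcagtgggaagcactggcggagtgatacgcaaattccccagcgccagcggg
Col4a6: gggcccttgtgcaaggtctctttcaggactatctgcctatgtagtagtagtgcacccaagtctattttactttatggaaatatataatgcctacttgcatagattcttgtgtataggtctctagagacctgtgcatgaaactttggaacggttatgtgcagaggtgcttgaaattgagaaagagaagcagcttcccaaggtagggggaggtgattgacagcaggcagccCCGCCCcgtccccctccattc
The Col3a1 stretch holds 1 TATAAA, that of Col4a5 holds 1 CCAAT and that of Col4a6 holds 1 GGGCGG, while the Col15a1 stretch holds none of these. Among 38 RefSeq promoters of 35 collagen genes, searched over 250 bases before the start and on both strands, 13.2% held TATAAA, 34.2% CCAAT and 57.9% GGGCGG. Of all 32851 promoters of that length the shares were 12.4%, 33.8% and 32.7%.

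The targeted genes were examined first. In the authors' deposited table on Ret null guts the fitted Ret level was 0.309% of wildtype (log2 change −8.34 ± 0.24), and in double null guts the change was −10.36 ± 0.29. Sema3d transcripts stood at 47.8% of wildtype in the authors' deposited table on Sema3d null guts and at 48.6% in double null guts. Sema3d was also called lower in the authors' deposited table on Ret null guts, at 83.1% of wildtype (−0.27 ± 0.06, adjusted p 0.000882). The error after each ± here and below is a standard error derived from the deposited deviances. Genes were called at a deposited adjusted p below 0.05 (Benjamini-Hochberg over the whole table). Markers of gut epithelium, smooth muscle and fibroblasts were abundant in wildtype, with summed fitted levels of 6195, 12833 and 15314 normalised counts in the 24-gut fit. Skeletal muscle markers were all below a level of 50. No marker of these lists, or of mesothelium, cartilage and skeleton, macrophages, erythroid cells, or liver and pancreas, was called by DESeq in any table, with 0 to 5 per list at an unadjusted p below 0.05.

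Fibrillar transcripts made up most of the collagen pool. Per kb of transcript, the scale on which levels of different genes were compared, fibrillar genes gave 65.3% of the summed collagen level in wildtype, the type IV chains 10.5%, the type VI chains 8.02%, FACIT collagens 5.56%, multiplexins 5.43% and membrane-spanning collagens 3.47%. Col3a1, the chain of the type III fibril, alone gave 25.8%, Col1a1 14.9% and Col1a2 12.4%, the last pair being the chains of the type I fibril. The fibrillar share was 64.9% in Ret null, 64.3% in Sema3d null and 64.7% in double null guts, and the summed collagen level per kb was 18375, 17566, 18377 and 19503 normalised counts in wildtype, Ret null, Sema3d null and double null. These sums carry no error, and their differences were not tested. The order of the classes was nearly the same in the 4 genotypes, with FACIT collagens and multiplexins close to each other and exchanging places.

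**Figure D1:**
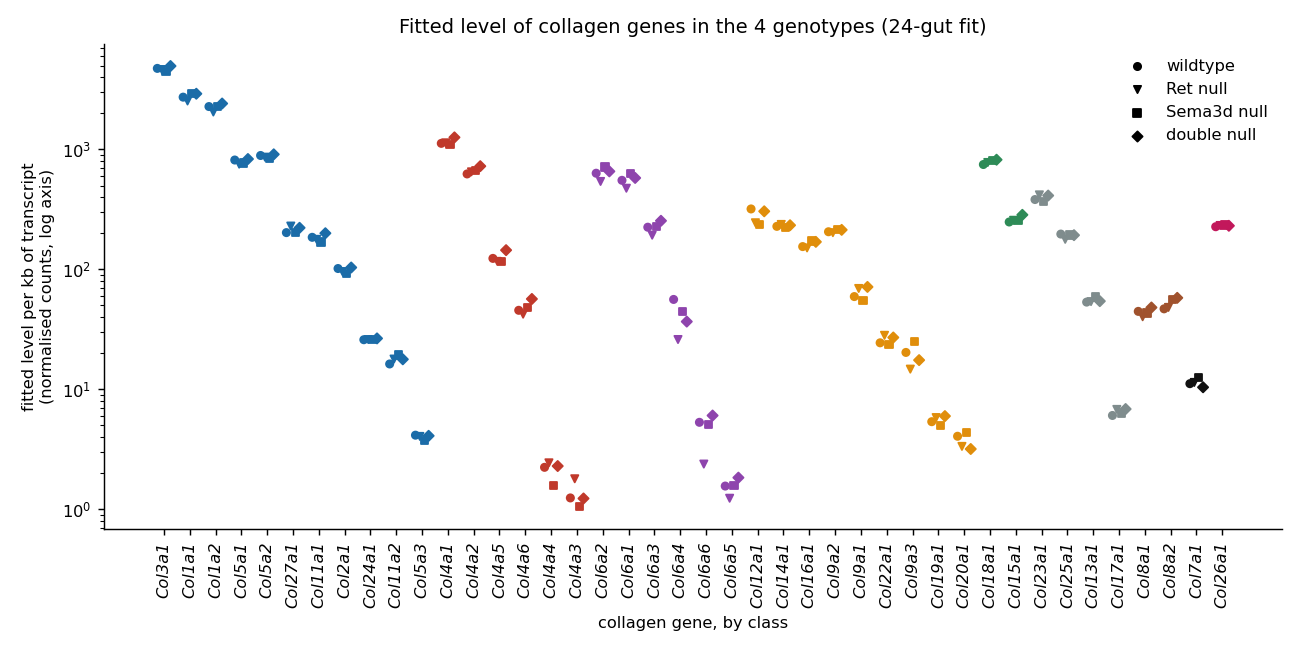
Fitted level per kb of transcript (normalised counts, log axis) of the collagen genes at 1 or more per kb in wildtype, ordered by class and coloured by it (blue fibrillar, red type IV, purple type VI, orange FACIT, green multiplexin, grey membrane-spanning, brown hexagonal network, black anchoring fibril, pink other). Symbols stand for the 4 genotypes of the 24-gut fit, and for most genes they lie close together, with Col6a4 and Col6a6 the most spread among purple points.

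Ratios of chains that share a trimer were compared without a test. The per-kb ratio of Col1a1 to Col1a2 was 1.2 in wildtype, 1.29 in Sema3d null and 1.21 in double null guts, with Ret null between these. That of Col4a1 to Col4a2, the common chains of basement membranes, was 1.8, 1.75, 1.64 and 1.74 in wildtype, Ret null, Sema3d null and double null. Col6a1 to Col6a2 stood at 0.873, 0.878, 0.881 and 0.881 in that order. Col5a1 to Col5a2, on chromosomes 2 and 1, was 0.917, 0.874, 0.923 and 0.914, and Col4a5 to Col4a6 was 2.71, 2.76, 2.42 and 2.55. The remaining pairs spread more. Col9a2 to Col9a1 was 3.47, 2.92, 3.88 and 2.99, and Col8a1 to Col8a2 was 0.952, 0.836, 0.772 and 0.831. Col6a1 to Col6a3 ran from 2.28 in double null to 2.77 in Sema3d null guts. Some of these pairs are neighbours in the genome. Col4a1 and Col4a2 run head to head with 22 shared bases on chromosome 8, and Col4a5 and Col4a6 are head to head on the X chromosome. Col6a1 lies 85.2 kb from Col6a2 on chromosome 10. The sources used here do not state whether reads were counted by strand, which bears on the shared bases of Col4a1 and Col4a2 and on Col6a4, Col12a1 and Col15a1, each of which is overlapped by an annotated gene on the other strand.

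In Ret null guts 1 collagen fell and none rose. In the authors' deposited table for this comparison 1 of 43 collagen genes was called, lower, beside 2.66% of all 24602 genes called and 2.27% called lower, so the count is near the background. At an unadjusted p below 0.05 there were 5 collagens, 4 lower and 1 higher, or 11.6% beside 8.43% of all genes. Of the 34 collagens whose fitted level, averaged over the genotypes compared, reached 50, 15 had a change above 0 (44.1%, beside 54.2% of all genes at that level), and the median was −0.03 beside 0.01. The 95% interval lay within 0.5 log2 units of 0 (1.41-fold) for 28 of the 34.

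**Figure D2:**
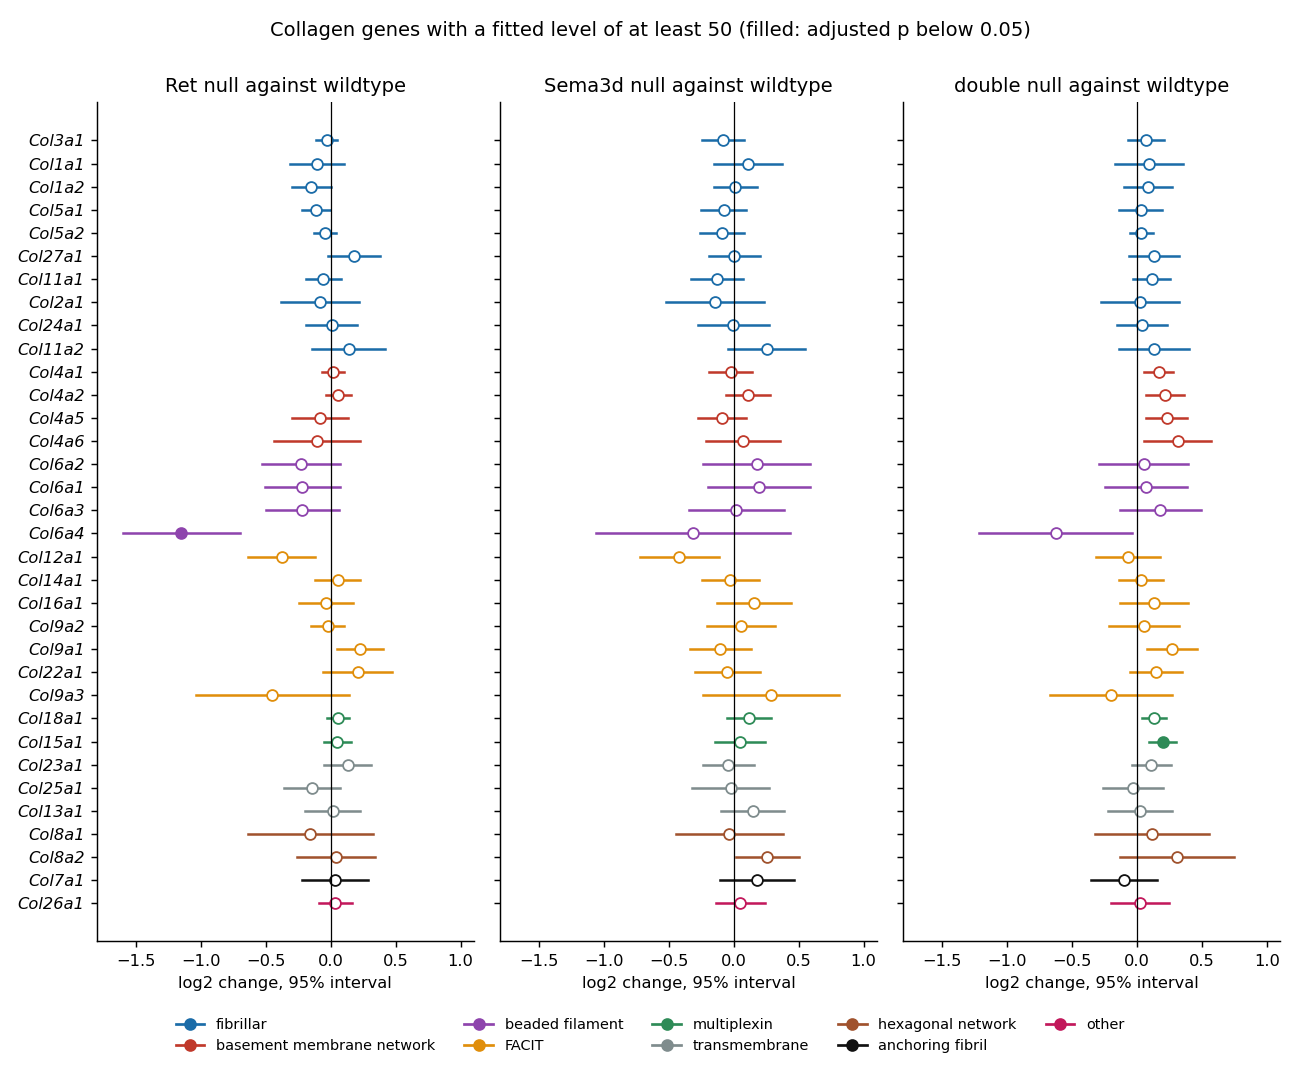
Log2 change against wildtype (points) with its 95% interval (lines) for the 34 collagen genes whose level reached 50, in the 3 mutant genotypes, coloured by class. Filled points passed the adjusted p of 0.05, which are Col6a4 in Ret null and Col15a1 in double null guts.

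The collagen that fell in Ret null guts was Col6a4, which encodes a type VI chain related to the product of Col6a3 (ENSMUSG00000032572, chromosome 9, 105989454 to 106096783 on GRCm38, minus strand). Its fitted level was 413.6 normalised counts in wildtype, 191.6 in Ret null, 329.8 in Sema3d null and 270.3 in double null guts. Wildtype was thus the highest and Ret null the lowest of the 4. The change on the log2 scale was −1.15 ± 0.23, with an adjusted p of 4.75e-05, in the authors' deposited table on Ret null guts. The authors' deposited table on double null guts gave −0.62 ± 0.30 (unadjusted p 0.0378, adjusted p 0.661) and that for Sema3d null guts −0.32 ± 0.38 (unadjusted p 0.405). Its interaction coefficient in the authors' deposited table was 0.82 ± 0.58 (p 0.157). Double null guts were not compared directly with Ret null guts.

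Col6a4 also had the highest male-over-female coefficient among the 34 collagens in each of the 4 fits. In the Ret null fit Col9a3 was further from 0 in the other direction, at −0.41. The authors' deposited table lists Col6a4 higher in males by 0.34 log2 units in the Ret null fit, 0.72 in the Sema3d null fit, 0.92 in the double null fit and 0.57 in the 24-gut fit. No p-value for sex was used here. Over the 34 collagens the median sex coefficient in the authors' deposited table ranged only from −0.015 to 0.036 across the 4 fits, and Col6a4 alone was beyond 0.5 log2 units, in 3 of them.

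The other type VI chains had lower estimates in Ret null guts without being called. The authors' deposited table lists Col6a1 at −0.22 ± 0.15, Col6a2 at −0.23 ± 0.15 and Col6a3 at −0.22 ± 0.14, values with unadjusted p between 0.130 and 0.140. Col6a6, a further chain of the Col6a3 type, fell short of the threshold: its level was 46.5 in wildtype, 20.9 in Ret null, 44.6 in Sema3d null and 53.0 in double null guts. The authors' deposited table gives it −1.17 ± 0.39 in Ret null guts, with an adjusted p of 0.0814. Col6a5, which lies between Col6a4 and Col6a6 on chromosome 9, had a level of only 14.5 in wildtype and −0.34 ± 0.35 in the authors' deposited table on Ret null guts. Gaps of 28.8 and 27.9 kb separate these 3 tandem genes, and whether reads were shared among them was not tested.

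Nervous system markers were far lower in the guts where Col6a4 was low. By the authors' deposited table on Ret null guts, 8 of 8 neuron markers were called lower, with a summed level of 2713 in wildtype and 177 in Ret null guts, and 5 of 8 glial and Schwann lineage markers were called lower (1734 to 675). In double null guts 8 and 6 of 8 were called lower. Macrophage markers had a summed level of 1098 in wildtype and 916 in Ret null guts, with 5 of 6 below an unadjusted p of 0.05 and none called. Summed levels of skeletal muscle markers were 101 in wildtype and 40.9 in Ret null guts. They were also lower in Sema3d null (103 to 59.7) and double null guts (99.7 to 45.5). These sums rest on few reads: in the Ret null comparison 4 of 7 markers had a wildtype level below 10, and the highest was 45.1. An unadjusted p below 0.05 was reached by 1 of them in Ret null guts and by 0 in the other mutants. Summed levels of liver and pancreas markers were 1646 in wildtype and 729 in Ret null guts, with 898 of the wildtype sum from 1 marker. Sums were higher in Sema3d null (2006 to 4562) and double null guts (1712 to 3198). In whole guts, fewer cells of a type and less RNA per cell cannot be told apart, and the part of these cells in the Col6a4 change was not tested.

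**Figure D3:**
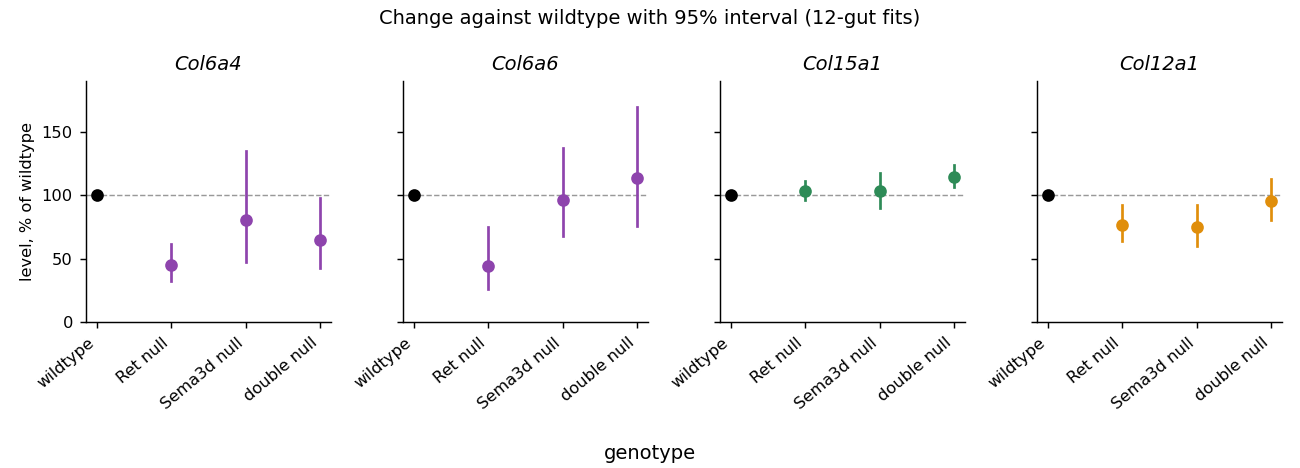
Level as a percentage of wildtype (points) with the 95% interval of the change (lines) for Col6a4, Col6a6, Col15a1 and Col12a1 in the 3 mutant genotypes, from the 12-gut fits, with wildtype set to the dashed line. Col6a4 and Col6a6 are lowest in Ret null guts, Col15a1 is above the line in double null guts, and Col12a1 is below it in both single nulls.

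No other collagen was called in Ret null guts. Col12a1, a FACIT collagen described with the interaction, was at −0.38 ± 0.13 (p 0.00425), and Col9a3, a FACIT chain with a wildtype level of only 61.9, at −0.45 ± 0.30 (p 0.133) in the authors' deposited table. From the authors' deposited table, Col3a1 was at −0.03 ± 0.04, Col1a1 at −0.11 ± 0.11 and Col1a2 at −0.15 ± 0.08 (p 0.0536), and Col5a1, a chain of the type V collagen that regulates fibril width, at −0.11 ± 0.06 (adjusted p 0.555). Of the 10 fibrillar genes at a level of at least 50, 3 were above 0 and 7 below, between −0.149 and 0.181. The 4 type IV chains at that level were between −0.108 and 0.059, with Col4a1 at 0.02 ± 0.04 and Col4a2 at 0.06 ± 0.05 in the authors' deposited table. Col9a1, a FACIT chain best known from cartilage, was the collagen with a higher estimate at an unadjusted p below 0.05, at 0.22 ± 0.09 (adjusted p 0.266) by the authors' deposited table.

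In Sema3d null guts no collagen was called. The authors' deposited table calls 0 of 43 collagen genes, with 2 at an unadjusted p below 0.05 (4.65%), beside 0.0404% of all 24747 genes called and 4.53% at that unadjusted p; DESeq was the only tool. The pair were Col12a1, at −0.42 ± 0.16 (p 0.00709), and Col8a2, a chain of the hexagonal network found under endothelia, at 0.26 ± 0.12 (p 0.0371) in the authors' deposited table. The collagen median was 0.01 beside 0.002 over all genes, 18 of 34 were above 0 (52.9%, beside 50.8%), and its sign turned in some of the other settings tried. The 3 collagens with the highest levels gave −0.08 ± 0.08 for Col3a1, 0.11 ± 0.13 for Col1a1 and 0.01 ± 0.08 for Col1a2 in the authors' deposited table. The interval lay within 0.5 log2 units of 0 for 26 of 34 collagens and within 1 for 33.

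In double null guts most collagens had estimates above 0, and 1 was called. The authors' deposited table calls Col15a1 higher, 1 of 44, beside 2.1% of all genes called and 0.231% called higher. At an unadjusted p below 0.05 there were 8 collagens, 7 higher and 1 lower, or 18.2% beside 6.71% of all genes. Of the 34 at a level of at least 50, 29 were above 0 (85.3%, beside 53.1% of all genes), with a median of 0.09 beside 0.01. These counts describe the list and are no test of it. The interval lay within 0.5 log2 units of 0 for 29 of 34.

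**Figure D4:**
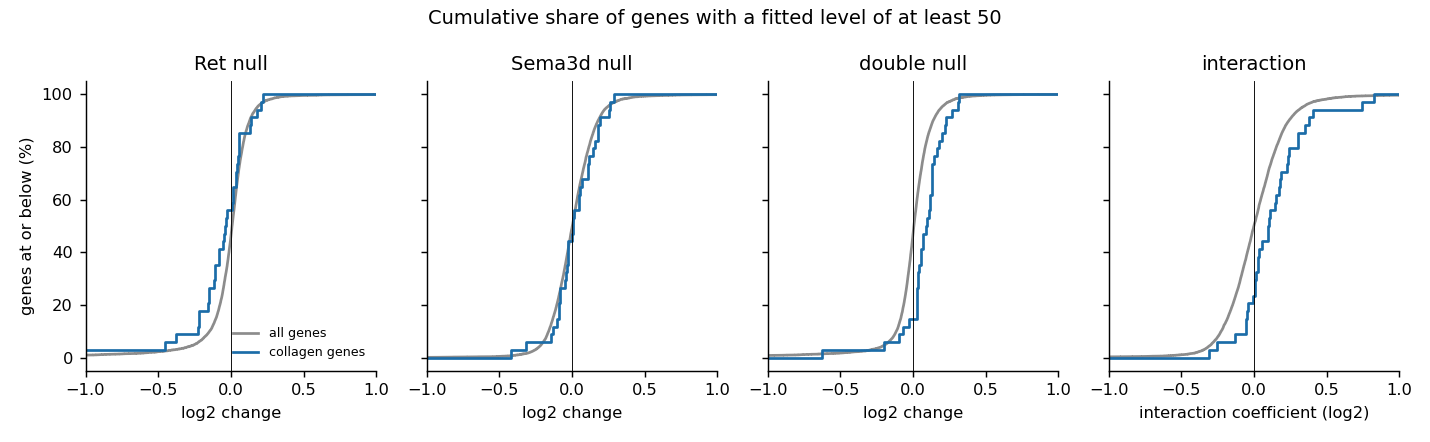
Cumulative share (%) of collagen genes (blue) and of all genes (grey), among those whose level reached 50, by log2 change against wildtype in 3 comparisons and by interaction coefficient in the fourth. The blue curve lies to the right of the grey one over most of its length in the double null and interaction panels, where the collagen medians were 0.09 and 0.10.

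Col15a1, the basement membrane zone multiplexin (ENSMUSG00000028339, chromosome 4, 47208161 to 47313167 on GRCm38, plus strand), had fitted levels of 1284 in wildtype, 1327 in Ret null, 1323 in Sema3d null and 1473 in double null guts. Double null guts were the highest and the other 3 genotypes lay close together. The log2 change in the authors' deposited table on double null guts was 0.20 ± 0.05, with an adjusted p of 0.0138. It was 0.05 ± 0.05 in the authors' deposited table on Ret null and 0.05 ± 0.10 for Sema3d null guts, and the interaction coefficient of 0.11 ± 0.11 (p 0.325) was not distinguishable from 0. The call is lost at an adjusted p threshold of 0.01.

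The basement membrane chains had higher estimates alongside it. According to the authors' deposited table on double null guts, Col4a1 was at 0.17 ± 0.06 (adjusted p 0.130), Col4a2 at 0.22 ± 0.07 (0.139), Col4a5 at 0.23 ± 0.08 (0.145) and Col4a6 at 0.31 ± 0.13 (0.428). All 4 type IV genes at a level of at least 50 thus had an unadjusted p below 0.05, and none was called. Col18a1, the multiplexin whose cleaved end is endostatin, was at 0.13 ± 0.05 (adjusted p 0.175) by the authors' deposited table. Col4a5 and Col4a6 start 1308 bases apart on opposite strands of the X chromosome, from the stretches printed above. Col4a3 and Col4a4, the chains typical of the kidney filter, had wildtype levels of only 10.6 and 22.6 and gave 0.01 ± 0.40 and 0.05 ± 0.26 in the authors' deposited table.

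Endothelial markers were higher in the same guts. The authors' deposited table on double null guts shows that 5 of 8 were called higher and all 8 were above 0, with a median of 0.27, and their summed level was 5764 in wildtype and 6866 in double null guts. In Sema3d null guts 0 were called by DESeq, with 3 at an unadjusted p below 0.05 and a summed level of 5933 in wildtype and 6523 in mutant guts, and in Ret null guts the sums were 5721 and 5741. Of markers at a level of at least 50 in double null guts, 7 of 7 for fibroblasts were above 0 (median 0.07) and 5 of 5 for mesothelium (0.16). So were 7 of 8 for smooth muscle (0.05), 6 of 8 for gut epithelium (0.06) and 2 of 5 for macrophages (−0.07). Erythroid markers had 4 of 4 above 0 (0.13), cartilage and skeleton markers 2 of 3 (0.12), and liver and pancreas markers 2 of 4 (−0.008). None of these non-endothelial markers was called. The fibroblast sum was also higher in Ret null guts, at 14947 in wildtype and 16302 in mutant guts. The part of endothelium or of these other cell types in the Col15a1 and type IV values was not tested.

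No fibrillar or FACIT collagen was called in double null guts. All 10 fibrillar genes at a level of at least 50 lay between 0.025 and 0.133, with Col3a1 at 0.07 ± 0.07, Col1a1 at 0.10 ± 0.13 and Col1a2 at 0.09 ± 0.09 in the authors' deposited table, and none passed an unadjusted p of 0.05. The 7 FACIT genes at that level ran from −0.202 to 0.269, and Col9a1, at 0.27 ± 0.10 (p 0.006, adjusted p 0.206) by the authors' deposited table, was the highest of them. Col14a1, a FACIT collagen of dense connective tissue, was at 0.03 ± 0.09 and Col16a1, a FACIT collagen of fibril surfaces, at 0.13 ± 0.14. Among membrane-spanning collagens Col23a1 gave 0.11 ± 0.08, Col25a1 −0.03 ± 0.12 and Col13a1 0.03 ± 0.12, and the anchoring fibril chain Col7a1 gave −0.10 ± 0.13 in the authors' deposited table. Of the hexagonal network Col8a1 was at 0.11 ± 0.22 and Col8a2 at 0.31 ± 0.22, and Col26a1, of no class here, at 0.02 ± 0.11.

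The interaction test asks whether the effect of losing Ret differs with and without Sema3d. The authors' deposited table calls 1 of 44 collagens, Col12a1, higher, beside 0.164% of all genes called and 0.129% called higher. There were 5 collagens at an unadjusted p below 0.05, all higher (11.4%, beside 6.79% of all genes): Col12a1, Col6a6, Col4a5, Col11a1 and Col1a2. The median coefficient of the 34 collagens at a level of at least 50 was 0.10, or 0.048 with the median of each gene's length decile removed, beside −0.001 over all genes, and 26 were above 0 (76.5%, beside 49.8%).

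Col12a1 encodes the chain of the FACIT collagen XII, which binds the surface of fibrils in tissue under load (ENSMUSG00000032332, chromosome 9, 79598991 to 79718831 on GRCm38, minus strand). Its fitted level was 3672 normalised counts in wildtype, 2817 in Ret null, 2732 in Sema3d null and 3510 in double null guts. Both single nulls were lower than wildtype and double null guts were close to it. The authors' deposited table gave −0.38 ± 0.13 for Ret null guts (unadjusted p 0.00425, adjusted p 0.124). For Sema3d null guts it gave −0.42 ± 0.16 (unadjusted p 0.00709, adjusted p 0.829) and for double null guts −0.07 ± 0.13 (unadjusted p 0.590). The interaction coefficient in the authors' deposited table was 0.74 ± 0.17, with an adjusted p of 0.011. None of the 3 comparisons with wildtype called the gene.

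Interaction coefficients moved with transcript length over all genes. The median coefficient was −0.13 for transcripts under 2 kb, −0.02 from 2 to 4 kb, 0.07 from 4 to 6 kb, 0.13 from 6 to 8 kb and 0.20 over 8 kb, with a Spearman rho of 0.53 over 12141 genes that share the same libraries. The collagens are long: none of the 34 had a transcript under 2 kb, and within them rho was 0.33. In the bins from 2 kb up the collagen medians were 0.02, 0.09, 0.18 and 0.23, the last over 5 genes. The principal Col12a1 transcript measures 11.51 kb. With the median of its length decile removed, the Col12a1 coefficient was 0.57 with an adjusted p of 0.235, and no collagen was called. In Sema3d null guts rho over all genes was −0.49, in Ret null guts −0.22 and in double null guts 0.10, and the part of length in the Col12a1 values was not tested beyond this.

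**Figure D5:**
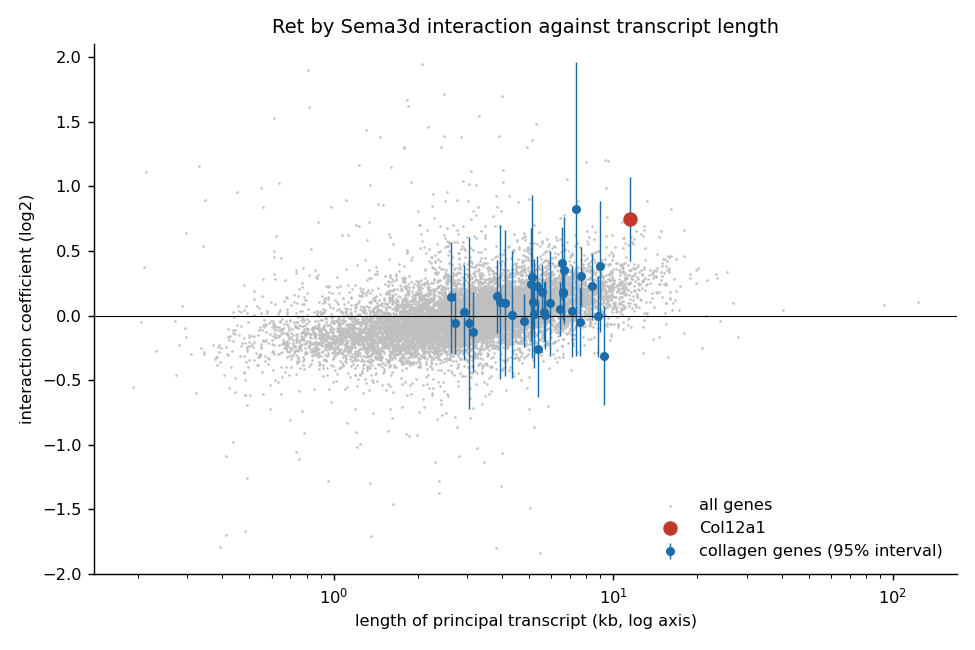
Interaction coefficient (log2) against the length of the principal transcript (kb, log axis) for all genes whose level reached 50 (grey; genes beyond 2 log2 units are not drawn) and for collagen genes (blue, with 95% intervals). Col12a1 (red) lies at 11.51 kb and 0.74, above the grey points that rise from left to right.

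The other collagens with a small unadjusted interaction p were not called. In the authors' deposited table Col6a6 had 1.41 ± 0.44 (adjusted p 0.215), Col4a5 0.40 ± 0.14 (0.380), Col11a1, a fibrillar chain of cartilage and other matrices, 0.30 ± 0.12 (0.489) and Col1a2 0.23 ± 0.12 (0.719). Errors were larger here than against wildtype, with a median of 0.16 over the 34 collagens, and 19 of their intervals lay within 0.5 log2 units of 0.

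The 10 collagens not at a level of 50 had wildtype levels of 0.16 for Col10a1, 2.16 for Col28a1 and between 10.6 and 46.5 for Col4a3, Col6a5, Col20a1, Col4a4, Col19a1, Col5a3, Col17a1 and Col6a6. Apart from Col6a6 none of these had an unadjusted p below 0.05 in any of the authors' deposited tables. Their errors were wide, from 0.22 for Col17a1 to 0.91 for Col28a1 in the Ret null fit.

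Genes that make, bind or break down collagen were counted, together with other matrix genes. The same shares of all genes were set beside them, 2.66% called in the Ret null comparison and 2.1% in the double null comparison. Of 37 biosynthesis and processing genes 1 was called, Plod2, a lysyl hydroxylase that sets the type of cross-link. It was higher, at 0.24 ± 0.06 (adjusted p 0.0115), by the authors' deposited table on double null guts. The count is near the share called in either direction, while 0.231% of all genes were called higher there. In that table the collagen chaperone Serpinh1 was at 0.09 ± 0.08 and P4hb, a subunit of prolyl hydroxylase, at 0.04 ± 0.04. Of 32 biosynthesis genes at a level of at least 50, 28 were above 0 in double null guts, with a median of 0.10. Over all genes at that level 53.1% were above 0, with a median of 0.006. In Ret null guts 16 of the 32 were above 0, with a median of 0.001, beside 54.2% and 0.008 over all genes. These counts were not tested. Serpinh1 was at −0.05 ± 0.07 and P4hb at −0.003 ± 0.043 in the authors' deposited table on Ret null guts.

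Among 11 collagen receptors 1 was called. At an unadjusted p below 0.05 there were 2 in Ret null, 2 in Sema3d null and 1 in double null guts, and 3 for the interaction. The shares of all genes were 8.43%, 4.53%, 6.71% and 6.79% in that order. The called receptor was Ddr2, a receptor tyrosine kinase that binds fibrillar collagen. It was lower in the authors' deposited table on Ret null guts, at −0.41 ± 0.10 (adjusted p 0.00304). Without being called there, Ddr2 was at −0.39 ± 0.15 in Sema3d null guts (unadjusted p 0.0078) and −0.16 ± 0.14 in double null guts. Its interaction coefficient in the authors' deposited table was 0.64 ± 0.23 (unadjusted p 0.0053, adjusted p 0.377). The integrin subunit Itgb1 was at −0.01 ± 0.04 and the endocytic receptor Mrc2 at 0.09 ± 0.05 in Ret null guts. None of the 13 degradation genes tested was called by DESeq in any table. At an unadjusted p below 0.05 there were 4 in Ret null guts, beside 8.43% of all genes. For the interaction there were 2, beside 6.79% of all genes, and 0 in the others. Mmp2, a gelatinase, was at 0.11 ± 0.05 (adjusted p 0.33) and Mmp14, its membrane-bound activator, at 0.04 ± 0.05 in the authors' deposited table on Ret null guts. Of 24 further matrix genes, laminin chains among them, 2 were called, both in the authors' deposited table on Ret null guts. These were the laminin chains Lama4, at −0.30 ± 0.06 (adjusted p 1.51e-05), and Lama5, at 0.22 ± 0.06 (0.00819). In that comparison 7 of the 24 had an unadjusted p below 0.05, beside 8.43% of all genes. The abundant matrix genes Fn1 and Hspg2 were at −0.004 ± 0.041 and 0.06 ± 0.07 in that table.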

How the data were processed

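Poly-A RNA of each gut was sequenced from a stranded library, per the labels' protocols. DESeq 1.24.0, RSEM 1.2.31, STAR, Trimmomatic 0.36 and FastQC 0.11.5 are named per the submitters' processing notes, without roles, with the build GRCm38. The authors deposited log2 coefficients, deviances (a score of fit) and p-values per gene, with no counts per gut, so depth is unknown. The headers name no base. Base 2 was used: the wildtype levels of a table then sum to 11.6 to 12 (in units of megacounts), against 435 to 458 with the natural base. Deposited p-values matched the deviance difference within 4.91e-09.

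A standard error was derived as the coefficient's size over the square root of the deviance difference, and tried on simulated data. The simulation took the spread between guts from that same error and treated it as known. It could therefore not test how well that spread was estimated. A fitted level is 2 to the intercept, averaged over sexes. Fits beyond 15 log2 units gave no change. Lengths are of GENCODE M21 principal transcripts; 44 of 44 collagens matched by ID without version, 31 of them with the same version. Python 3.11.15 was used, with pandas 2.3.3 and scipy 1.17.1.

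Named were every called collagen, the 3 highest collagens per class and, of each partner list, called genes (up to 5) and the 2 highest. Members and lists were chosen with earlier results of these data known. Alternatives were other thresholds, filters and adjustments, centring, the 24-gut fit and removal of the length trend.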

Additional observations from a re-analysis of the deposited data

Results flagged for a closer look

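The Ret by Sema3d interaction coefficient of Col12a1, 0.744 on the log2 scale in the authors' deposited table, stood out because the effect of losing Ret differed between guts with and without Sema3d by a test of that difference. The fitted change on losing Ret was −0.38 with Sema3d present, and Col12a1 stood at 2732 normalised counts in Sema3d null and 3510 in double null guts. With the trend of the coefficients with transcript length removed, the coefficient was 0.569 and its adjusted p 0.235.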

How the results depend on the processing

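At an adjusted p threshold of 0.1 the count of called collagens in Ret null guts was 2 (Col6a4 and Col6a6) in place of 1. At 0.01 it was 0 in double null guts and 0 for the interaction, and with the median of each transcript length decile removed, an alternative chosen after seeing the data, it was 0 for the interaction. Adjusting over genes at a level of at least 50 or over protein-coding genes left all 4 counts as they were. The Sema3d null median of 0.008 had no stable sign: it was 0.003 in the 24-gut fit, −0.003 without a filter on level, −0.024 at a level of at least 200, 0.005 with the median of all genes removed and 0.072 with the length trend removed. With that trend removed the Ret null median was −0.022 in place of −0.034 and the interaction median 0.048 in place of 0.10. The double null median ran from 0.069 to 0.112. Of single collagen changes, 102 stayed the same under the 24-gut fit and 102 under centring, while removing the length trend moved 3 and weakened 1, the Col12a1 interaction. Centring shifted changes by at most 0.008 log2 units and the 24-gut fit holds the same guts, so neither could move them much. A change counted as the same could still turn its sign. With the length trend removed, Col22a1 in Sema3d null guts went from −0.050 to 0.061. No paired analysis was possible because the tables hold no values per gut, and leaving out each gut in turn was not run for the same reason. The depth of the libraries is unknown, so precision is known only through the derived errors.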

Other observations

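Genes near the called collagens were counted within 1 Mb on either side. Around Col6a4 38 genes were tested in Ret null guts and 2 were called, Pcbp4 and Rpl29, with 10 at an unadjusted p below 0.05, beside 2.66% and 8.43% of all genes. The 23 at a level of at least 50 lay between −0.20 and 0.84 with a median of 0.05. Around Col15a1 21 genes were tested in double null guts and 1, Invs, was called, with 1 at an unadjusted p below 0.05, beside 2.1% and 6.71% of all genes. Around Col12a1 10 genes were tested for the interaction and 0 were called, with 0 at an unadjusted p below 0.05 by the authors' DESeq test. Col1a2 and Col28a1 share chromosome 6 with Ret, 113.6 and 110.0 Mb away, and Col26a1 shares chromosome 5 with Sema3d, 124.2 Mb away.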
